A study of Mus musculus with 12 samples.

Results

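The antioxidant and glutathione enzymes described here were the genes whose symbols name a glutathione S-transferase of the alpha, kappa, mu, omega, pi or theta class (Gsta, Gstk, Gstm, Gsto, Gstp, Gstt), a numbered glutathione peroxidase (Gpx), peroxiredoxin (Prdx) or superoxide dismutase (Sod), or a thioredoxin or its relatives (Txn), together with Cat, Nqo1, Hmox1, Gclc, Gclm, Gss, Gsr and Srxn1. They were chosen by name and not by level. 59 such genes were among the 18820 genes with a probe set of their own, that is, one that carries a single gene symbol. The 59 genes had 66 such probe sets, and the brightest one stood for each gene. The signal reached a group mean of 32 in at least 1 group for 51 of the 59 genes. The other 8 (Gpx2, Gpx5, Gpx6, Gsto2, Gstp3, Gstt4, Txndc2 and Txndc8) were dimmer in all 4 groups, and none of them differed between genotypes in either tissue by the test described below. Gsta1, Gsta2, Gstm5, Gstp2, Prdx5 and Prdx6 were not analysed here, and Prdx6-ps2 is annotated as a pseudogene.

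These enzymes remove superoxide, hydrogen peroxide and lipid peroxides, which arise largely as by-products of mitochondrial respiration. Superoxide dismutases turn superoxide into hydrogen peroxide, and catalase, glutathione peroxidases and peroxiredoxins reduce the peroxide. Glutathione, a tripeptide built by glutamate-cysteine ligase and glutathione synthetase, and thioredoxin supply the electrons and are themselves recharged from NADPH by their reductases. Glutathione S-transferases couple glutathione to reactive aldehydes and other electrophiles. Many of these genes are known targets of NRF2, encoded by Nfe2l2, a transcription factor that is held back by KEAP1 and binds antioxidant response elements together with small MAF proteins. Skeletal muscle and heart both respire heavily and rely on these systems.

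Signals were measured on 12 Affymetrix arrays in 4 groups of 3, namely skeletal muscle of Tk2-/- and of Tk2+/+ mice and, likewise, heart of Tk2-/- and of Tk2+/+ mice, all C57BL/6 and 11 days old. Tk2 encodes thymidine kinase 2, the mitochondrial enzyme that phosphorylates thymidine and deoxycytidine for mitochondrial DNA synthesis, and the knockout is germline and affects all tissues. Pups came from matings of heterozygous parents, and the muscle was taken whole from the hind limb. Group differences were log2 fold changes of signal + 16, Tk2-/- over Tk2+/+, from a limma fit over all genes, with a Benjamini-Hochberg adjusted p under 0.05 as the threshold. A gene is called higher or lower below only where it passed. Whether fewer cells of a type or less RNA per cell lay behind a lower signal cannot be told apart in whole tissue.

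The targeted gene itself was not clearly lower in skeletal muscle. Tk2 had signals of 64.7, 44.1 and 48.7 on the Tk2-/- skeletal muscle arrays, against 62.9, 68.5 and 63.1 on the Tk2+/+ arrays, and of 30.1, 46.2 and 31.7 in Tk2-/- heart, against 70.2, 73.6 and 81.8 in Tk2+/+ heart. The log2 fold change was -0.25 (adjusted p = 0.208) in skeletal muscle, where the arrays overlapped, and -0.82 (adjusted p = 7.62e-05) in heart, where they did not. Which part of the transcript these probes read is not stated in the sources, and the values do not check the genotypes. Of 15 genes of skeletal muscle fibres, 14 were higher in Tk2+/+ skeletal muscle than in Tk2+/+ heart, and 15 of 15 cardiomyocyte genes were lower there, as the tissue labels state. The Tk2-/- heart arrays were dimmer as a whole. Their mean signal over all probe sets was 147 to 168, against 227 to 243 in Tk2+/+ heart, while Tk2-/- skeletal muscle had 225 to 246 and Tk2+/+ skeletal muscle 202 to 252. Over all genes the median log2 fold change in heart was -0.28, and among the 4051 brightest genes it was -0.68, with 94.7% of them below 0. Heart results of the 59 genes, and counts of other lists in heart, are therefore given from the deposited values and again after quantile normalization within each tissue, which brings the arrays of a tissue to 1 distribution. The deposited values allow no choice between these scales. Xist, transcribed in females, was bright in skeletal muscle on 2 of 3 Tk2-/- and 1 of 3 Tk2+/+ arrays and in heart on 3 of 3 Tk2-/- and 2 of 3 Tk2+/+ arrays.

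In Tk2-/- skeletal muscle, 21 of the 59 genes were higher and 7 were lower than in Tk2+/+ skeletal muscle, while 31 did not pass. Of all genes, 11.6% were called higher and 10.9% lower. The median log2 fold change was 0.14 over the 59 genes and -0.02 over all genes. The higher genes came from nearly every branch of the system: glutathione synthesis and recycling (Gclc, Gclm, Gsr), glutathione S-transferases (Gsta3, Gstm1, Gstm3, Gstm6, Gstm7, Gsto1, Gstt2), the plasma glutathione peroxidase Gpx3, Prdx1 with its repair enzyme Srxn1, the thioredoxin genes Txn1, Txnrd1, Txnip and Txnl1, the pair Sod1 and Cat, and the stress enzymes Hmox1 and Nqo1. The lower genes were Gsta4, Gpx7, Gpx8, Prdx4, Sod3, Txndc5 and Txnl4b. The 3 Tk2-/- arrays all lay above the 3 Tk2+/+ arrays for 24 of the 59 genes (16.9% of all genes) and all below them for 9 (18.8% of all genes). Quantile normalization within the tissue called 23 higher and 9 lower, with 13.8% and 14.8% of all genes. Without Tk2-/- skeletal muscle replicate 2, the count of lower genes was 4, and 1359 of all 18820 genes were lower. The call of Txnl4b was lost without that array, without Tk2-/- skeletal muscle replicate 3 or without Tk2+/+ skeletal muscle replicate 2, with adjusted p between 0.0792 and 0.107.

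In Tk2-/- heart, 4 of the 59 genes were higher (Gsta3, Gstm1, Gstm3 and Txnip) and 36 were lower with the deposited values. Of all genes, 1.99% were called higher and 49% lower. The median over the 59 genes was -0.54. The 3 Tk2-/- arrays lay above the Tk2+/+ arrays for 4 of the 59 genes (3.16% of all genes) and below them for 39 (53.3% of all genes). After quantile normalization the counts were 12 higher and 9 lower, with 13.9% and 17.9% of all genes, and the median was 0.00. The higher genes were then Gpx3, Gsta3, Gstm1, Gstm2, Gstm3, Gstm6, Gsto1, Gstt2, Gss, Prdx6-ps2, Txndc16 and Txnip, and the lower ones Gpx1, Gpx7, Gpx8, Prdx1, Sod3, Srxn1, Txn2, Txndc5 and Txndc12. The count of 4 higher genes with the deposited values was 2 without Tk2+/+ heart replicate 1 and 7 without Tk2+/+ heart replicate 3. Of all 18820 genes, 265 and 277 were then higher. As a measure that needs no scaling between arrays, the 59 genes together made up 0.943%, 0.899% and 0.958% of the signal of all genes in Tk2-/- heart, against 0.798%, 0.790% and 0.849% in Tk2+/+ heart. The same share was 0.819%, 0.836% and 0.812% in Tk2-/- skeletal muscle, against 0.642%, 0.689% and 0.684% in Tk2+/+ skeletal muscle. The shares did not overlap between genotypes in either tissue, and bright genes such as Txn1, Sod1 and Txnip weigh most in them. In heart the mean signal of Txnip was 3201 in Tk2-/- and 1927 in Tk2+/+, that of Txn1 2369 and 3573, and that of Sod1 2924 and 3554. A share also rises where the signal of other genes falls more. The summed signal of the 59 genes was 26004.5 to 28636.6 in Tk2-/- and 34492.8 to 39767.1 in Tk2+/+ heart. That of all genes was 2713660 to 3183810 in Tk2-/- and 4365620 to 4686280 in Tk2+/+ heart. No other set of genes was compared, and the shares do not show that most of the 59 genes rose.

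**Figure D1:**
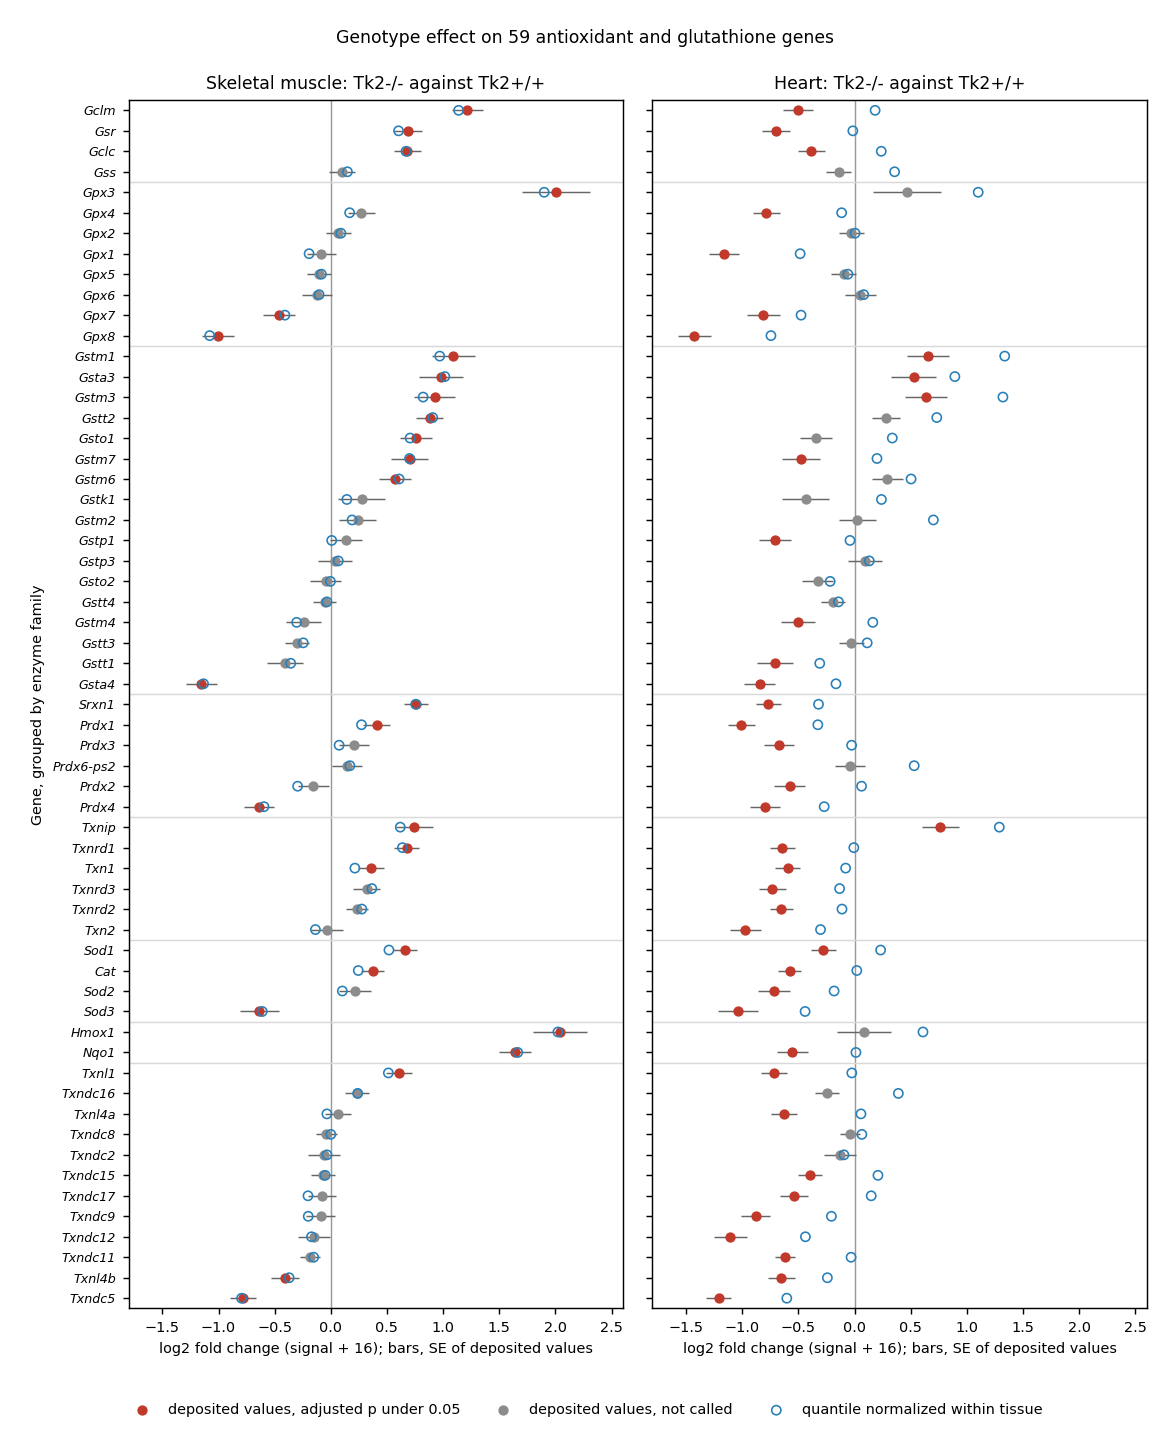
Log2 fold change of each of the 59 genes, Tk2-/- over Tk2+/+, in skeletal muscle (left) and heart (right), grouped by enzyme family. Filled points are deposited values with their SE (red where called, grey where not), and open circles are values after quantile normalization within the tissue. In skeletal muscle both scales nearly coincide, with 21 genes called higher, and in heart the normalized values lie to the right of the deposited ones for most genes.

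Glutathione synthesis and recycling were higher in Tk2-/- skeletal muscle for 3 of 4 genes, where 11.6% of all genes were higher. Gclm encodes the modifier subunit of glutamate-cysteine ligase, the enzyme of the rate-limiting first step. Its signal was 638, 766 and 517 on the Tk2-/- skeletal muscle arrays, against 249, 299.8 and 243 on the Tk2+/+ arrays. Every Tk2-/- array was well above every Tk2+/+ array, with a log2 fold change of 1.22 ± 0.14 (SE, adjusted p = 1.53e-05). Gclc, the catalytic subunit, had 252, 246 and 225 in Tk2-/- and 136, 167 and 131 in Tk2+/+ skeletal muscle, a smaller difference of 0.68 ± 0.12 (SE, adjusted p = 6.75e-04). Gsr, glutathione reductase, which returns oxidized glutathione to its reduced form, had 551, 602 and 499 against 309, 397 and 306, with no overlap and a log2 fold change of 0.69 ± 0.13 (SE, adjusted p = 0.00106). Gss, the enzyme of the second step of synthesis, did not pass, at 69.2 ± 9.91 in Tk2-/- and 63.1 ± 3.67 in Tk2+/+ skeletal muscle (SD, n = 3 each, adjusted p = 0.631).

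The direction in heart depended on the scale for these genes. Gclm had 255, 225 and 267 in Tk2-/- heart, against 337, 341 and 400.4 in Tk2+/+ heart, and was called lower with the deposited values at -0.50 ± 0.14 (SE, adjusted p = 0.00506). After quantile normalization it was 0.18 (adjusted p = 0.306). Gclc was at -0.39 ± 0.12 (SE, adjusted p = 0.0121) with the deposited values and at 0.24 (adjusted p = 0.165) after normalization. Gsr was at -0.70 ± 0.13 (SE, adjusted p = 2.37e-04) and at -0.02 (adjusted p = 0.904), called lower on the first scale and not on the second. Gss was not called with the deposited values, at -0.14 (adjusted p = 0.339), and was called higher after normalization, at 0.36 (adjusted p = 0.0282). The call of Gclc was lost without Tk2-/- heart replicate 2, at -0.28 (adjusted p = 0.0719).

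Hmox1 and Nqo1 were among the 3 largest increases of the 59 genes in Tk2-/- skeletal muscle. Hmox1, haem oxygenase 1, which breaks down haem, had 382, 712 and 266 on the Tk2-/- arrays, against 89.6, 91.8 and 87.0 on the Tk2+/+ arrays. The Tk2+/+ arrays were nearly alike, whereas the Tk2-/- arrays differed among themselves, with replicate 2 the highest. The log2 fold change was 2.04 ± 0.24 (SE, adjusted p = 2.39e-05), and 1.67 (adjusted p = 1.23e-05) without that array. Nqo1, a quinone reductase and a textbook NRF2 target, had 113, 151 and 119 in Tk2-/- and 21.9, 36.7 and 31.8 in Tk2+/+ skeletal muscle. The lowest Tk2-/- array was above the highest Tk2+/+ array, with a log2 fold change of 1.64 ± 0.14 (SE, adjusted p = 1.47e-06). In heart, Hmox1 did not pass, with 85.9, 62.7 and 98.2 in Tk2-/- against 77.6, 68.2 and 81.6 in Tk2+/+ and overlapping arrays (adjusted p = 0.815, and adjusted p = 0.0814 for a log2 fold change of 0.61 after normalization). Nqo1 had 78.7, 74.2 and 102 in Tk2-/- heart and 140.0, 126 and 129 in Tk2+/+ heart, lower with the deposited values at -0.55 ± 0.14 (SE, adjusted p = 0.00331) and at 0.01 (adjusted p = 0.968) after normalization. Hmox1 is strongly expressed by macrophages. Of 15 macrophage and leucocyte genes, 3 were higher and 1 lower in Tk2-/- skeletal muscle, where 11.6% and 10.9% of all genes were called. Their summed signal was 2266 to 2747 in Tk2-/- and 2033 to 2902 in Tk2+/+ skeletal muscle, so that it overlapped between genotypes. None of the 15 was near 0. Their part in the Hmox1 result was not tested.

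**Figure D2:**
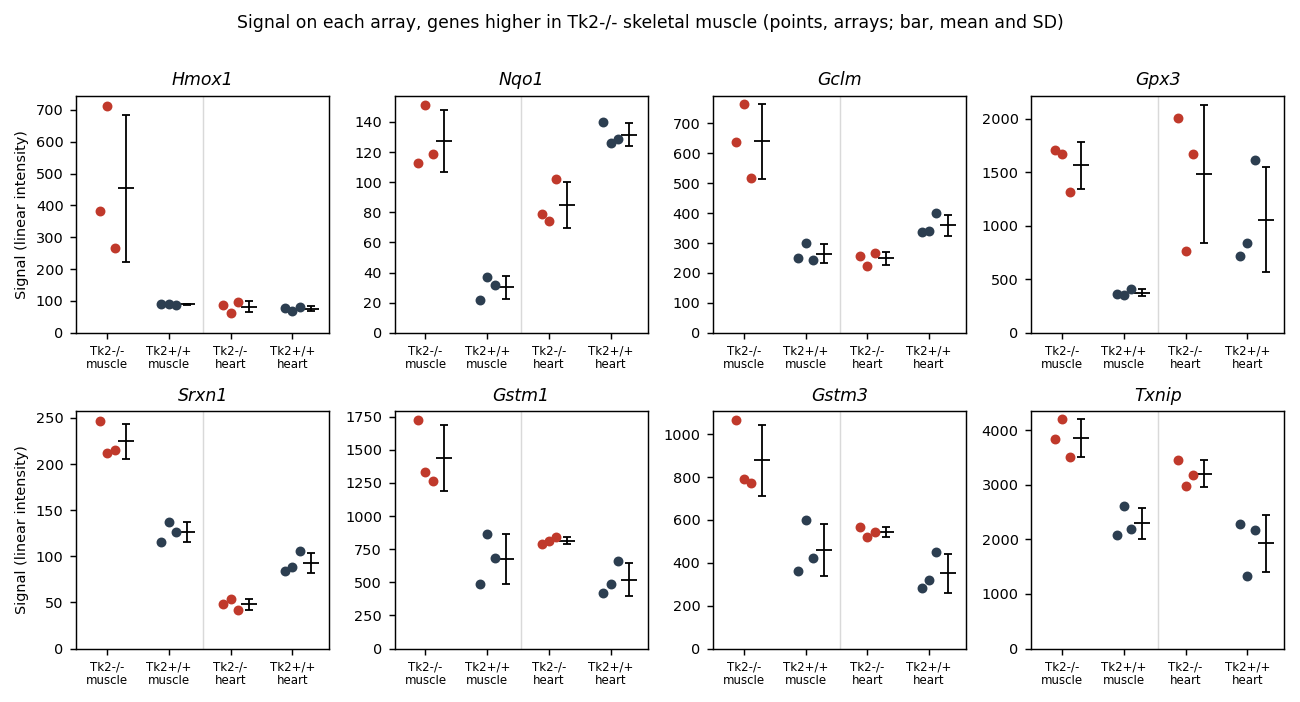
Signal (linear intensity) on each of the 12 arrays for 8 genes that were higher in Tk2-/- skeletal muscle, with Tk2-/- in red left of Tk2+/+ in dark blue for each tissue, and the mean and SD beside the points. Hmox1, Nqo1, Gclm, Gpx3 and Srxn1 separated the genotypes in skeletal muscle and were not called higher in heart with the deposited values plotted here, while Gstm1, Gstm3 and Txnip were higher in both tissues. After quantile normalization Gpx3 was called higher in heart too.

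The glutathione S-transferases were higher in Tk2-/- skeletal muscle for 7 of 17 genes and lower for 1, where 11.6% and 10.9% of all genes were called. Gstm1, a cytosolic transferase of the mu class, had 1724, 1329.6 and 1263 in Tk2-/- skeletal muscle, against 488, 864 and 681 in Tk2+/+, a log2 fold change of 1.09 ± 0.19 (SE, adjusted p = 6.47e-04). Gstm3, of the same class, had 1066, 793 and 773 against 361, 598 and 422, a log2 fold change of 0.92 ± 0.18 (SE, adjusted p = 0.00199). Both were also higher in heart, unlike most of the genes described so far. Gstm1 had 788, 811 and 842 in Tk2-/- heart and 417, 485 and 658 in Tk2+/+ heart, with a log2 fold change of 0.65 ± 0.19 (SE, adjusted p = 0.00817), and Gstm3 had 565, 520.2 and 542 against 281, 319 and 450.2, with 0.64 ± 0.18 (SE, adjusted p = 0.00852). Neither overlapped between genotypes in either tissue. After quantile normalization the heart values were 1.34 (adjusted p = 1.85e-04) for Gstm1 and 1.32 (adjusted p = 1.55e-04) for Gstm3. The Gstm3 call in heart was lost without Tk2+/+ heart replicate 1, at 0.50 (adjusted p = 0.0508). The mu-class genes are close paralogs, and how far their probes tell them apart was not tested, so the split between Gstm1, Gstm3 and their neighbours is uncertain.

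Gsta3, an alpha-class transferase, was dim but higher in both tissues. It had 46.8, 52.3 and 27.1 in Tk2-/- skeletal muscle, against 14.5, 11.5 and 12.6 in Tk2+/+ (log2 fold change 0.98 ± 0.20 SE, adjusted p = 0.00206), and 67.0, 48.5 and 63.3 in Tk2-/- heart, against 20.6, 46.0 and 46.6 in Tk2+/+ (0.53 ± 0.20 SE, adjusted p = 0.0360). The heart call was sensitive to single arrays. It was lost without Tk2-/- heart replicate 1, at 0.45 (adjusted p = 0.121), without Tk2-/- heart replicate 3, at 0.49 (adjusted p = 0.101), and without Tk2+/+ heart replicate 1, at 0.27 (adjusted p = 0.229). Gsta3, like several transferases, is abundant in liver. Of 8 hepatocyte genes, none was called in skeletal muscle, and in heart 1 (Ahsg) was higher and 1 (Serpina1d) lower on both scales. Their summed signal was 1154, 164 and 162 in Tk2-/- skeletal muscle, against 185, 139.9 and 159 in Tk2+/+, and 451, 321 and 347 in Tk2-/- heart, against 143, 164 and 256 in Tk2+/+. It was thus high on Tk2-/- skeletal muscle replicate 1 and did not overlap between genotypes in heart. Without that skeletal muscle array the log2 fold change in the tissue was 0.91 for Gsta3 (adjusted p = 0.00914), 0.96 for Gstm1 (adjusted p = 0.00357) and 0.78 for Gstm3 (adjusted p = 0.0104). The part of hepatocyte RNA in the results was not tested in either tissue.

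Gsto1, of the omega class, had 413 ± 66.5 in Tk2-/- and 240.0 ± 55.4 in Tk2+/+ skeletal muscle (SD, n = 3 each, log2 fold change 0.76 ± 0.14 SE, adjusted p = 0.00113), and Gstm7 had 211 ± 59.7 against 121 ± 15.3 (0.70 ± 0.17 SE, adjusted p = 0.00631). Both were scale dependent in heart, at -0.34 (adjusted p = 0.0534) and -0.48 (adjusted p = 0.0245) with the deposited values and at 0.34 (adjusted p = 0.0468) and 0.20 (adjusted p = 0.374) after normalization. The Gstm7 call in heart was lost without Tk2-/- heart replicate 1 or 3 and without Tk2+/+ heart replicate 3, with adjusted p between 0.0809 and 0.109. Gsto1 passed in heart with the deposited values when Tk2-/- skeletal muscle replicate 2 or 3 or Tk2+/+ skeletal muscle replicate 1 or 2 was left out of the shared estimate of spread, with adjusted p between 0.0205 and 0.0442.

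Gsta4 went the other way. It encodes the alpha-class transferase that clears 4-hydroxynonenal, an aldehyde formed from peroxidized lipids. Its signal was 86.5, 63.2 and 69.1 in Tk2-/- skeletal muscle, against 162, 212 and 172 in Tk2+/+, the largest decrease of the 59 genes in this tissue with the deposited values (log2 fold change -1.15 ± 0.14 SE, adjusted p = 2.62e-05). In heart, where it was brighter, it had 342, 452 and 337 in Tk2-/- and 727, 625 and 705 in Tk2+/+, lower at -0.85 ± 0.14 (SE, adjusted p = 9.10e-05) with the deposited values and at -0.17 (adjusted p = 0.225) after normalization. In both tissues all Tk2-/- arrays lay below all Tk2+/+ arrays. The remaining transferases that did not pass in skeletal muscle ranged from -0.41 for Gstt1 to 0.28 for Gstk1.

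Of the 8 glutathione peroxidases, 1 was higher and 2 were lower in Tk2-/- skeletal muscle, where 11.6% and 10.9% of all genes were called. Gpx3 encodes the peroxidase that is secreted into plasma. It had 1708, 1667 and 1315 in Tk2-/- skeletal muscle, against 362, 357 and 409.7 in Tk2+/+, a log2 fold change of 2.0 ± 0.30 (SE, adjusted p = 2.16e-04). This was about as large as the increase of Hmox1, and here the Tk2-/- arrays lay closer together than those of Hmox1. In heart the arrays of both genotypes were spread, with 2009.8, 768 and 1674 in Tk2-/- and 718, 836 and 1618 in Tk2+/+, and the difference did not pass at 0.46 ± 0.30 (SE, adjusted p = 0.236). It was called in heart after quantile normalization, at 1.1 (adjusted p = 0.0246), and with the deposited values without Tk2-/- heart replicate 2, at 0.88 (adjusted p = 0.00728), or without Tk2+/+ heart replicate 3, at 0.81 (adjusted p = 0.0276). Gpx3 is also known as a gene of fat tissue. Of 9 adipocyte genes, 7 were higher and 1 was lower in Tk2-/- skeletal muscle, where 11.6% and 10.9% of all genes were called. Their summed signal was 4364 to 6140 against 2468 to 3220 in Tk2+/+ skeletal muscle. Adipoq, the defining adipokine of this list, averaged 365 ± 136 in Tk2-/- and 132 ± 53.9 in Tk2+/+ skeletal muscle (SD, n = 3 each), and none of the list's genes was at 0. Their part in the Gpx3 result was not tested.

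Gpx1, the abundant cytosolic peroxidase, and Gpx4, which reduces peroxidized membrane lipids, did not pass in skeletal muscle. Gpx1 had 710.0 ± 77.1 in Tk2-/- and 755 ± 107 in Tk2+/+ skeletal muscle (SD, n = 3 each, adjusted p = 0.757), and Gpx4 had 742 ± 29.2 against 614 ± 67.8 (adjusted p = 0.139). In heart Gpx1 was clearly lower. It had 378, 400.4 and 373 in Tk2-/- heart, against 791, 796 and 1074 in Tk2+/+ heart, a log2 fold change of -1.16 ± 0.13 (SE, adjusted p = 6.05e-06) that remained past the threshold after normalization at -0.49 (adjusted p = 0.00355). Gpx4 was lower with the deposited values at -0.79 ± 0.12 (SE, adjusted p = 6.47e-05) and at -0.12 (adjusted p = 0.354) after normalization. Gpx1 is abundant in red cells. Of 10 erythroid genes, 7 were lower and none higher in Tk2-/- heart with the deposited values, and 4 were lower and 2 higher after normalization. Of all genes in heart, 49% were lower and 1.99% higher with the deposited values, and 17.9% and 13.9% after normalization. Their summed deposited signal was 839 to 1221 in Tk2-/- heart against 1787 to 2761 in Tk2+/+ heart, and their part in the Gpx1 result was not tested.

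The peroxiredoxins gave no common direction in skeletal muscle. Prdx1, the cytosolic peroxiredoxin, had 1683, 1795 and 1633 in Tk2-/- skeletal muscle, against 1227, 1484 and 1147 in Tk2+/+, a log2 fold change of 0.41 ± 0.12 (SE, adjusted p = 0.0245). This call was weak. It was lost without Tk2-/- replicate 1 or 2 or Tk2+/+ replicate 1 or 3 of the tissue, with adjusted p between 0.0516 and 0.105, and the other probe set of the gene gave 0.27 (adjusted p = 0.237). Srxn1, sulfiredoxin, which repairs overoxidized peroxiredoxins and is a known NRF2 target, differed more, with 247, 212 and 215 in Tk2-/- and 116, 137 and 126 in Tk2+/+ skeletal muscle (0.76 ± 0.11 SE, adjusted p = 1.55e-04). Prdx2 at -0.16 (adjusted p = 0.514) and the mitochondrial Prdx3 at 0.21 (adjusted p = 0.326) did not pass. Without Tk2+/+ skeletal muscle replicate 2 Prdx3 passed, at 0.37 (adjusted p = 0.0354).

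In heart Prdx1 and Srxn1 were lower on both scales, opposite to skeletal muscle. Prdx1 had 753, 965 and 741 in Tk2-/- heart, against 1780.4, 1611 and 1571 in Tk2+/+, at -1.01 ± 0.12 (SE, adjusted p = 8.83e-06) with the deposited values and -0.33 (adjusted p = 0.00571) after normalization. Srxn1 had 48.3, 53.8 and 41.7 against 84.6, 88.7 and 106, at -0.77 ± 0.11 (SE, adjusted p = 3.40e-05) and -0.32 (adjusted p = 0.0224). No array of either gene overlapped between genotypes in heart. These were the only genes of the 59 with opposite calls in the tissues after normalization. Prdx2 and Prdx3 were lower with the deposited values, at -0.58 (adjusted p = 0.00227) and -0.67 (adjusted p = 5.05e-04), and did not pass after normalization, at 0.06 (adjusted p = 0.669) and -0.03 (adjusted p = 0.845).

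Within the thioredoxin system Txnrd1, Txn1 and Txnip were higher in Tk2-/- skeletal muscle. Txnrd1, the cytosolic thioredoxin reductase, had 302, 372 and 287 in Tk2-/- and 172, 219.7 and 190.4 in Tk2+/+ skeletal muscle (0.68 ± 0.11 SE, adjusted p = 4.31e-04). Txn1, the cytosolic thioredoxin, had 3436, 3681 and 3876 against 2814, 3153 and 2619.8 (0.36 ± 0.11 SE, adjusted p = 0.0334), a difference that was small although no arrays overlapped. The Txn1 call was lost without Tk2-/- replicate 2 or 3 or Tk2+/+ replicate 1 or 3 of the tissue, with adjusted p between 0.093 and 0.127, and after quantile normalization, at 0.21 (adjusted p = 0.112). The other probe set of Txn1 gave 0.51 (adjusted p = 0.00597) in skeletal muscle with the deposited values. Txnip, which binds thioredoxin, inhibits it and restrains glucose uptake, was higher in both tissues, as Gstm1 and Gstm3 were. It had 3839, 4201 and 3508 in Tk2-/- skeletal muscle, against 2081, 2614 and 2190.3 in Tk2+/+ (0.74 ± 0.17 SE, adjusted p = 0.00424), and 3457, 2970.2 and 3176 in Tk2-/- heart, against 2285, 1333 and 2163 in Tk2+/+ (0.76 ± 0.17 SE, adjusted p = 0.00106, and 1.29, adjusted p = 8.29e-05 after normalization). The effects in the tissues differed by -0.02 with the deposited values and did not pass (adjusted p = 0.965). After normalization the effect in skeletal muscle was 0.62 (adjusted p = 0.00889). The difference was then -0.67, larger in heart, and did not pass (adjusted p = 0.0717).

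The mitochondrial enzymes Txn2, Txnrd2 and Sod2 were, like the mitochondrial Prdx3 above, not called in skeletal muscle with the deposited values. They were grouped by location after their values were seen. Txn2, the mitochondrial thioredoxin, had 1861 ± 253 in Tk2-/- and 1911 ± 325 in Tk2+/+ skeletal muscle, Txnrd2, its reductase, 86.8 ± 8.12 against 71.5 ± 3.13, and Sod2, the mitochondrial superoxide dismutase, 2494 ± 307 against 2152 ± 389.7 (SD, n = 3 each). Their log2 fold changes were -0.03 ± 0.14, 0.23 ± 0.10 and 0.22 ± 0.14 (SE), with adjusted p = 0.914, 0.121 and 0.338. Txnrd2 passed after normalization, at 0.28 (adjusted p = 0.0154). In heart all of them were lower with the deposited values. Txn2 had 816, 1025 and 792 in Tk2-/- heart, against 1759.8, 1616 and 1809 in Tk2+/+, at -0.97 ± 0.14 (SE, adjusted p = 3.16e-05), and was still lower after normalization at -0.30 (adjusted p = 0.0185). Txnrd2 at -0.65 (adjusted p = 5.75e-05) and Sod2 at -0.72 (adjusted p = 5.01e-04) did not pass after normalization, at -0.11 (adjusted p = 0.294) and -0.18 (adjusted p = 0.162).

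Sod1 and Cat were higher in Tk2-/- skeletal muscle. Sod1, the cytosolic copper-zinc superoxide dismutase, had 3058, 3687 and 3381 in Tk2-/- and 1899, 2453 and 2059.5 in Tk2+/+ skeletal muscle (0.66 ± 0.11 SE, adjusted p = 4.70e-04), with all Tk2-/- arrays above all Tk2+/+ arrays. Cat, the peroxisomal catalase, had 1839, 1902 and 1846 against 1323, 1579.8 and 1418 (0.37 ± 0.10 SE, adjusted p = 0.0141). Its call was lost without Tk2-/- skeletal muscle replicate 2, at 0.36 (adjusted p = 0.0561), or without Tk2+/+ skeletal muscle replicate 1, at 0.31 (adjusted p = 0.0753). In heart both were lower with the deposited values, Sod1 at -0.28 ± 0.11 (SE, adjusted p = 0.0460) and Cat at -0.58 ± 0.10 (SE, adjusted p = 1.57e-04), and neither passed after normalization, at 0.23 (adjusted p = 0.0881) and 0.02 (adjusted p = 0.874). The Sod1 call in heart lay at the threshold. It was lost without any 1 of the Tk2-/- heart arrays, without Tk2+/+ heart replicate 1 or 3 and without replicate 3 of Tk2-/- or of Tk2+/+ skeletal muscle, with adjusted p between 0.0540 and 0.160. The other probe set of Sod1 gave 0.55 (adjusted p = 0.00130) in skeletal muscle and did not pass in heart, at -0.16 (adjusted p = 0.220).

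Gpx8, Txndc5, Prdx4, Sod3 and Gpx7 were lower in both tissues with the deposited values. They are described together because their proteins lie in the endoplasmic reticulum or outside the cell, a grouping made after their values were seen, and not every gene of these compartments was lower. The secreted Gpx3 was higher in skeletal muscle (above), and Txndc12 and Txndc16, of the endoplasmic reticulum, did not pass there, at -0.15 ± 0.15 (SE, adjusted p = 0.561) and 0.23 ± 0.10 (SE, adjusted p = 0.136). Gpx8, a peroxidase of the endoplasmic reticulum, had 281, 210.2 and 217 in Tk2-/- skeletal muscle, against 549.5, 493 and 424 in Tk2+/+ (-1.01 ± 0.15 SE, adjusted p = 1.51e-04), and 257, 311 and 214 in Tk2-/- heart, against 781, 639.5 and 745 in Tk2+/+ (-1.43 ± 0.15 SE, adjusted p = 2.66e-06). It had the largest decrease of the 59 genes in heart on either scale. Txndc5, a protein disulfide isomerase of the same compartment, had 124, 119.5 and 109 against 246, 207 and 192 in skeletal muscle (-0.78 ± 0.11 SE, adjusted p = 1.45e-04) and 93.6, 86.8 and 79.5 in Tk2-/- heart, against 243, 193 and 231 in Tk2+/+ heart (-1.21 ± 0.11 SE, adjusted p = 1.53e-06). Prdx4, the peroxiredoxin of the endoplasmic reticulum, had 53.3 ± 6.08 against 92.3 ± 15.2 in skeletal muscle (-0.64 ± 0.13 SE, adjusted p = 0.00267) and 63.9 ± 9.06 against 123 ± 18.9 in heart (-0.80 ± 0.13 SE, adjusted p = 1.13e-04, SD, n = 3 each). For all 3 genes every Tk2-/- array was below every Tk2+/+ array in either tissue.

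Sod3, the extracellular superoxide dismutase, had 91.6, 67.9 and 91.0 in Tk2-/- skeletal muscle, against 157, 136 and 123 in Tk2+/+ (-0.64 ± 0.18 SE, adjusted p = 0.0158), and 79.6, 99.4 and 77.8 in Tk2-/- heart, against 181, 144 and 269 in Tk2+/+ (-1.04 ± 0.18 SE, adjusted p = 1.31e-04). In skeletal muscle its call was lost without Tk2-/- replicate 2, at -0.52 (adjusted p = 0.0867), or without Tk2+/+ replicate 1, at -0.55 (adjusted p = 0.0697). The related peroxidase Gpx7 was lower at -0.46 ± 0.14 (SE, adjusted p = 0.0306) in skeletal muscle and -0.81 ± 0.14 (SE, adjusted p = 1.90e-04) in heart. After normalization the heart values were -0.75 (adjusted p = 3.92e-04) for Gpx8, -0.60 (adjusted p = 3.44e-04) for Txndc5, -0.44 (adjusted p = 0.0482) for Sod3, -0.48 (adjusted p = 0.0138) for Gpx7 and -0.27 (adjusted p = 0.0570) for Prdx4, so that Prdx4 no longer passed. Txndc12, another thioredoxin-fold protein of the endoplasmic reticulum, was called lower in heart, with 181, 203 and 123 in Tk2-/- and 389, 338 and 403 in Tk2+/+ heart (-1.11 ± 0.15 SE, adjusted p = 1.66e-05, and -0.44, adjusted p = 0.0105 after normalization). Its effect differed between the tissues by 0.96 ± 0.21 (SE, adjusted p = 0.00164) with the deposited values and by 0.27 (adjusted p = 0.330) after normalization.

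Fibroblasts and other matrix-secreting cells are rich in endoplasmic reticulum. Of 11 fibroblast genes, 7 were lower and 1 was higher in Tk2-/- skeletal muscle, where 10.9% and 11.6% of all genes were called. Their summed signal was 8286 to 10424 against 15033 to 17270 in Tk2+/+ skeletal muscle. In heart all 11 were lower with the deposited values, with a summed signal of 5935 to 6912 in Tk2-/- and 12678 to 16083 in Tk2+/+ heart, and after normalization 8 were lower and 1 higher. Of all genes in heart, 49% were lower with the deposited values, and 17.9% were lower and 13.9% higher after normalization. Col1a1 averaged 1264 ± 149 in Tk2-/- and 3310.5 ± 204 in Tk2+/+ skeletal muscle (SD, n = 3 each). The 9 genes of dividing cells were all lower in skeletal muscle and in heart with the deposited values, against 10.9% and 49% of all genes. All 9 were also lower in heart after normalization, against 17.9% of all genes. The part of these cells in the lower signals of Gpx7, Gpx8, Prdx4, Sod3 and Txndc5 was not tested.

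**Figure D3:**
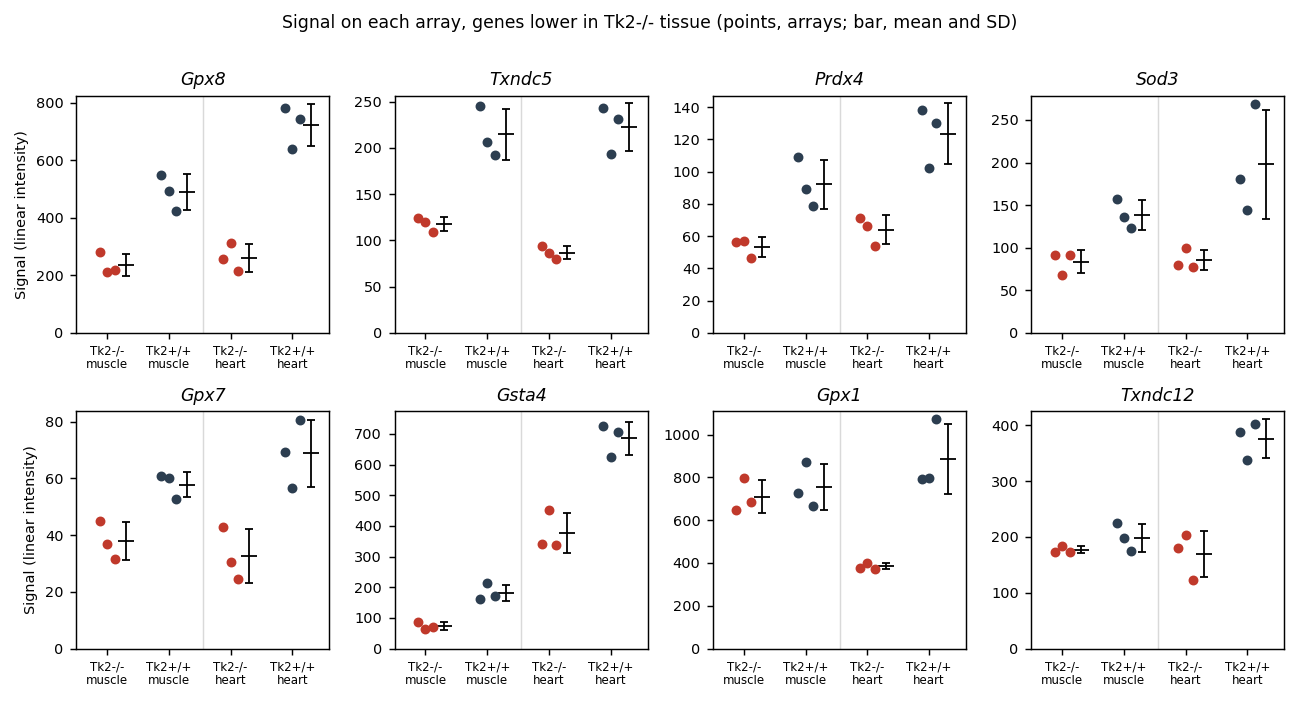
Signal (linear intensity) on each of the 12 arrays for 8 genes that were lower in Tk2-/- tissue, with Tk2-/- in red left of Tk2+/+ in dark blue for each tissue, and the mean and SD beside the points. With the deposited values plotted here, Gpx8, Txndc5, Prdx4, Sod3, Gpx7 and Gsta4 were lower in both tissues. Gpx1 and Txndc12 overlapped between genotypes in skeletal muscle and were lower in heart. After quantile normalization Prdx4 and Gsta4 were no longer called in heart.

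The genotype effect in skeletal muscle was higher than that in heart for 31 of the 59 genes and lower for none with the deposited values, where 41.3% and 1.39% of all genes were called. After quantile normalization 9 were higher and 1, Gsta4, was lower, with 6% and 4.54% of all genes. The 9 were Gclm, Gsr, Hmox1, Nqo1, Prdx1, Srxn1, Txnl1, Txnrd1 and Txnrd2. Nqo1 differed most, by 2.20 ± 0.20 (SE, adjusted p = 7.24e-06) on the log2 scale with the deposited values and by 1.65 (adjusted p = 0.00122) after normalization. Hmox1 differed by 1.96 ± 0.34 (SE, adjusted p = 4.29e-04) and by 1.41 (adjusted p = 0.0239), and Gclm by 1.72 ± 0.19 (SE, adjusted p = 3.73e-05) and by 0.96 (adjusted p = 0.00588). Gpx3 differed by 1.54 ± 0.43 (SE, adjusted p = 0.00871) with the deposited values but did not pass after normalization, at 0.80 (adjusted p = 0.324). For Gsta4 the difference was -0.31 ± 0.19 (SE, adjusted p = 0.237) with the deposited values and -0.97 (adjusted p = 0.00120) after normalization, that is, a stronger decrease in skeletal muscle after normalization only. A p above the threshold does not show that the effects in the tissues were alike.

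The tissues themselves differed in the Tk2+/+ mice. Of the 59 genes, 8 had a higher signal in Tk2+/+ skeletal muscle than in Tk2+/+ heart and 21 had a lower one, where 30.6% and 18.4% of all genes were called. The split depended on the scaling, with 3 higher and 32 lower after median centring and 21 higher and 13 lower after quantile normalization within each tissue. Of all 18820 genes, 2161 were higher and 6450 lower after median centring, and 9329 and 2016 after quantile normalization. Gstm7 had 106, 122 and 136 in skeletal muscle, against 491, 539.5 and 639 in heart (log2 fold change -2.06 ± 0.17 SE, adjusted p = 1.06e-07). Gsta4 (-1.83 ± 0.14 SE, adjusted p = 4.10e-08), Nqo1 (-1.69 ± 0.14 SE, adjusted p = 1.45e-07) and Gsto1 (-1.68 ± 0.14 SE, adjusted p = 1.52e-07) followed. All of these were several times brighter in heart. Among the genes higher in skeletal muscle, Gstt3, of the theta class, had 62.6, 82.0 and 65.5 in skeletal muscle, against 26.2, 25.8 and 23.2 in heart (1.06 ± 0.11 SE, adjusted p = 1.77e-06), followed by Gstm4 (0.70 ± 0.15 SE, adjusted p = 0.00175), the spliceosomal protein gene Txnl4b (0.58 ± 0.12 SE, adjusted p = 0.00136) and the dim Gstp3 (0.41 ± 0.15 SE, adjusted p = 0.0339), whose call was lost without Tk2+/+ skeletal muscle replicate 1, at 0.23 (adjusted p = 0.192), and without Tk2+/+ heart replicate 1 or 3. Nqo1 in Tk2-/- skeletal muscle, at 128 ± 20.6, lay near its level in Tk2+/+ heart, at 132 ± 7.47 (SD, n = 3 each). Gstm7, Gsto1, Gclm and Cat, all higher in Tk2-/- skeletal muscle, were also among the genes lower in Tk2+/+ skeletal muscle than in Tk2+/+ heart.

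Of 9 genes of the NRF2 system, which include its partners and its negative regulators, 8 were higher and none lower in Tk2-/- skeletal muscle, where 11.6% of all genes were called higher, and the median log2 fold change was 0.59. Negative regulators were among the higher genes. Bach1, a repressor of NRF2 targets, was at 0.91 ± 0.10 (SE, adjusted p = 1.05e-05), and Cul3, a subunit of the ligase that marks NRF2 for degradation, at 0.49 ± 0.12 (SE, adjusted p = 0.00726), whereas Keap1, which recruits NRF2 to that ligase, did not pass at 0.24 ± 0.12 (SE, adjusted p = 0.187). Mafk, a small MAF partner of NRF2, had 224 ± 48.8 in Tk2-/- and 77.6 ± 5.75 in Tk2+/+ skeletal muscle (SD, n = 3 each, 1.34 ± 0.14 SE, adjusted p = 1.05e-05). Sqstm1, p62, which binds KEAP1 and is itself an NRF2 target, had 4009.8 ± 339 against 1934 ± 431 (1.07 ± 0.14 SE, adjusted p = 7.68e-05), and Nfe2l2 891 ± 101 against 586 ± 41.5 (0.59 ± 0.17 SE, adjusted p = 0.0186). In heart 1 of the 9 was higher, Sqstm1 at 0.43 ± 0.14 (SE, adjusted p = 0.0184), and 5 were lower with the deposited values, among them Nfe2l2 at -1.05 ± 0.17 (SE, adjusted p = 7.67e-05). After normalization 5 were higher and none lower in heart, with Bach1 at 0.55 (adjusted p = 6.61e-04) and Nfe2l2 at -0.37 (adjusted p = 0.0724). Of all genes in heart, 1.99% were higher and 49% lower with the deposited values, and 13.9% and 17.9% after normalization. The list has no p of its own, because its genes were chosen with earlier results of these arrays known.

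**Figure D4:**
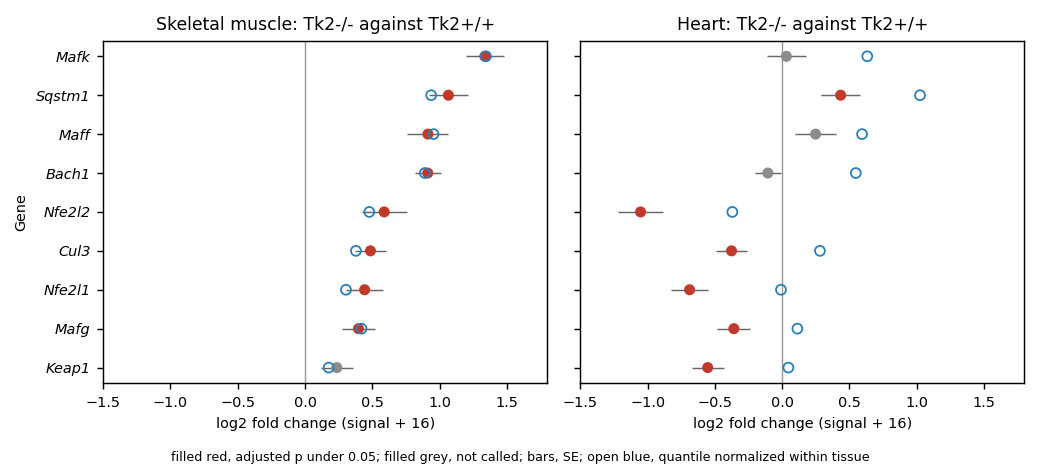
Log2 fold change of the 9 genes of the NRF2 system, Tk2-/- over Tk2+/+, in skeletal muscle (left) and heart (right), with filled points and SE for deposited values and open circles after quantile normalization. In skeletal muscle 8 of 9 were called higher, and in heart the deposited and normalized values differ in sign for Bach1, Cul3, Mafg and Keap1.

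Other genes of glutathione handling and oxidant balance were counted from lists, to be read against these shares of all genes. In skeletal muscle 11.6% were called higher and 10.9% lower. In heart 1.99% were called higher and 49% lower with the deposited values, and 13.9% and 17.9% after normalization. Of 26 other glutathione genes, 8 were higher and 2 lower in Tk2-/- skeletal muscle, against 1 higher and 17 lower in heart with the deposited values and 5 higher and 7 lower in heart after normalization. Chac1, an enzyme that degrades glutathione, had 1211 ± 76.9 in Tk2-/- and 256 ± 36.2 in Tk2+/+ skeletal muscle (SD, n = 3 each, 2.18 ± 0.12 SE, adjusted p = 1.55e-08), and was not called in heart with the deposited values (-0.19 ± 0.12 SE, adjusted p = 0.205) but was higher after normalization, at 0.36 (adjusted p = 0.0255). The membrane-bound transferases Mgst3 (1.38 ± 0.13 SE, adjusted p = 4.08e-06) and Mgst1 (1.31 ± 0.21 SE, adjusted p = 3.06e-04) were also higher in skeletal muscle. Of 17 other NRF2 targets, the counts in skeletal muscle were 4 higher and 2 lower, with Aox1, aldehyde oxidase, at 1.25 ± 0.12 (SE, adjusted p = 3.54e-06) and Akr1b10, an aldo-keto reductase, at -0.95 ± 0.16 (SE, adjusted p = 4.29e-04), and in heart 1 higher and 13 lower with the deposited values and 2 higher and 7 lower after normalization. Taldo1, transaldolase, was at -1.28 ± 0.15 (SE, adjusted p = 6.19e-06) in heart, and at -0.62 (adjusted p = 7.99e-04) after normalization. Of 12 genes of NADPH supply, the counts in skeletal muscle were 5 higher and 2 lower, led by Nadk2, the mitochondrial NAD kinase, at 1.35 ± 0.14 (SE, adjusted p = 5.85e-06). In heart 1 of these was higher and 7 were lower with the deposited values, and 3 were higher and 4 lower after normalization, with medians of -0.65 and -0.01. Aldh1l2, a mitochondrial folate enzyme, was at -1.39 ± 0.13 (SE, adjusted p = 1.33e-06) and -0.82 (adjusted p = 4.48e-05) on these scales, and Me1, malic enzyme, at -1.21 ± 0.14 (SE, adjusted p = 8.38e-06) and -0.53 (adjusted p = 0.00589).

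The next lists are to be read against the same shares of all genes. Of 20 methionine sulfoxide reductases and other guards, 3 were higher and 8 lower in Tk2-/- skeletal muscle, and in heart 1 was higher and 16 were lower with the deposited values, against 5 higher and 9 lower after normalization. Sesn1, sestrin 1, had 1561 ± 524 in Tk2-/- and 346 ± 16.7 in Tk2+/+ skeletal muscle (SD, n = 3 each, 2.07 ± 0.17 SE, adjusted p = 9.25e-07) and was higher in heart too (1.02 ± 0.17 SE, adjusted p = 1.12e-04, and 1.66, adjusted p = 1.70e-05 after normalization). Its relative Sesn3 was lower in both, at -0.93 ± 0.16 (SE, adjusted p = 5.67e-04) and -1.39 ± 0.16 (SE, adjusted p = 6.02e-06), as was the methionine sulfoxide reductase Msra, at -0.62 ± 0.16 (SE, adjusted p = 0.00917) and -1.29 ± 0.16 (SE, adjusted p = 8.73e-06), and in heart both also passed after normalization, at -0.81 (adjusted p = 5.25e-04) and -0.61 (adjusted p = 0.00148). Among 13 oxidant-producing enzymes, 4 were higher and 1 was lower in skeletal muscle, and in heart 2 were higher and 6 lower with the deposited values, against 2 higher and 3 lower after normalization. Cyp2e1, a cytochrome P450 that leaks oxidants, had 380.1 ± 155 in Tk2-/- and 19.8 ± 8.99 in Tk2+/+ skeletal muscle (3.43 ± 0.24 SE, adjusted p = 1.85e-07), and Xdh, xanthine dehydrogenase, 453 ± 41.2 against 92.6 ± 19.8 (2.12 ± 0.22 SE, adjusted p = 9.25e-06). Xdh was higher in heart as well (1.29 ± 0.22 SE, adjusted p = 1.57e-04, and 1.92, adjusted p = 1.15e-04 after normalization). So was Cyp2e1 (0.81 ± 0.24 SE, adjusted p = 0.00953, and 0.93, adjusted p = 0.0179 after normalization). It was dim there, at 28.6 ± 9.39 in Tk2-/- and 9.40 ± 4.98 in Tk2+/+ heart (SD, n = 3 each). The summed hepatocyte signal was high on Tk2-/- skeletal muscle replicate 1 and did not overlap between genotypes in heart (above). Its part in the Cyp2e1 results was not tested. Cyba, a subunit of the NADPH oxidases, was lower in both tissues, at -0.46 ± 0.14 (SE, adjusted p = 0.0322) in skeletal muscle and -1.19 ± 0.14 (SE, adjusted p = 8.55e-06) in heart, where it was at -0.52 (adjusted p = 0.00256) after normalization. Of 7 genes of selenoprotein synthesis, on which the thioredoxin reductases and those glutathione peroxidases that carry selenocysteine, such as Gpx1, Gpx3 and Gpx4, depend, 1 was higher and 1 lower in skeletal muscle, and all 7 were lower in heart with the deposited values and 3 after normalization.

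Promoter sequences of the genes were searched for the core of the antioxidant response element, because NRF2 is known to act through it and 8 of 9 genes of its system were higher in Tk2-/- skeletal muscle. RefSeq promoters of build GRCm38.p6, 250 bases before to 50 bases after the start site, were at hand for 50 of the 59 genes. The core TGACNNNGC, on either strand, was in at least 1 promoter of 10 of these 50 genes (20%), against 15.4% of the 14749 genes with a promoter. Of the genes called higher in Tk2-/- skeletal muscle, 7 of 16 held it (Gclm, Gsta3, Gstm7, Prdx1, Sod1, Srxn1 and Txnrd1), of those called lower 1 of 5 (Txndc5), and of those not called 2 of 29 (Txndc2 and Txndc11). This split was made after the calls were known and has no test. Nqo1 and Txnip held no match in this window, and Gclc, Gsr and Hmox1 were not searched. The FoxO motif GTAAACA was found for Txnip and Txnl4b (4.0% of the 50 genes, against 3.5% of all), and the palindromic glucocorticoid response element for none, against 2 of all genes. The 250 bases before the start site are given for 4 of the 7 higher genes, which stand for 4 enzyme families, and for Txndc5, the lower gene with a match, with the match in capitals:
Gclm, chr3:122245307-122245556, plus strand: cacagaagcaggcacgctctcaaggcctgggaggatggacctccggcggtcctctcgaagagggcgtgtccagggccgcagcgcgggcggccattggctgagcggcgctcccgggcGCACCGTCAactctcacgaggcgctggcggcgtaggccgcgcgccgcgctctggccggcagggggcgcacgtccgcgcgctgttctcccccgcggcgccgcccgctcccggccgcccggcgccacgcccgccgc
Gsta3, chr1:21240335-21240584, plus strand: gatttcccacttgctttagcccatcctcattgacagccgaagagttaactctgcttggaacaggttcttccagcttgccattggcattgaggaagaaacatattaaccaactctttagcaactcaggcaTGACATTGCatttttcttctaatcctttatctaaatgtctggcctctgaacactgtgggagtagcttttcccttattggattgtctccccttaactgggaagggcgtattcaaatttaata
Prdx1, chr4:116685349-116685598, plus strand: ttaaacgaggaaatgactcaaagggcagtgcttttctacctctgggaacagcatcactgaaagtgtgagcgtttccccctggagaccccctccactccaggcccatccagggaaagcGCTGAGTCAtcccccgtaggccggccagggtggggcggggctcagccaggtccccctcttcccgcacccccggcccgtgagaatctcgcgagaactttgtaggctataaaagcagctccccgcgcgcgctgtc
Txnrd1, chr10:82858956-82859205, plus strand: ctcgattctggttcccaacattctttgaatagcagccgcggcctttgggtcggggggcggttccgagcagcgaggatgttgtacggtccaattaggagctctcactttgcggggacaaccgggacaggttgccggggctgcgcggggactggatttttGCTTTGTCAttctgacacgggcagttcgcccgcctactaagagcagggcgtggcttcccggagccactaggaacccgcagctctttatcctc
Txndc5, chr13:38527915-38528164, minus strand: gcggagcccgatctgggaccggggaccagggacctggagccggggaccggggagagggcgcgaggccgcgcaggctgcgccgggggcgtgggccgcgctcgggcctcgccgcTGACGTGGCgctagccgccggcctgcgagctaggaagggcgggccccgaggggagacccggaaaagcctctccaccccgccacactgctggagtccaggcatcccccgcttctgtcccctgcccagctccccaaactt
The matches began at positions -134 (Gclm), -121 (Gsta3), -133 (Prdx1), -92 (Txnrd1) and -138 (Txndc5) relative to the start site, and read from the plus strand of the gene for Gsta3 and Txndc5 and from the other strand for Gclm, Prdx1 and Txnrd1. A match in letters does not show that a factor bound there.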

How the data were processed

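Total RNA of hind limb skeletal muscle and heart was measured on 12 arrays, 3 mice per tissue and genotype. The deposited table holds 1 linear intensity per probe set and array, made by the authors with software that the submitters' processing notes name as Affymetrix Expression Console and PLIER. The methods state that data were normalized without naming the procedure, and the arrays still differ in overall brightness. Of 35556 probe sets, 21218 carried 1 gene symbol, and the brightest set per gene left 18820 genes.

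An offset of 16 was added, log2 was taken, and 4 group means were fitted with limma 3.58.1 in R 4.3.3 (8 residual degrees of freedom), with 2-sided tests and p-values adjusted over all genes (Benjamini-Hochberg, threshold 0.05). The fit was tested on simulated data. Folds of dim genes are understated by the offset, and the number of arrays limits the precision. The genes and lists were chosen with earlier results of these data known. Genes named with full values had a fixed role (superoxide dismutases, catalase, main peroxidases, peroxiredoxins, thioredoxins, glutathione synthesis, Nqo1, Hmox1, Srxn1), or were, among those past the threshold, the 5 largest changes each way per tissue without overlapping arrays, the 4 largest differences between the tissues or between the Tk2+/+ tissues each way, or the 3 largest changes of a related list. Others stand as parts of counts. Besides quantile normalization (limma, all probe sets of a tissue), the alternatives were median centring, upper-quartile scaling, an offset of 1, a filter on dim genes, the mean over probe sets, each tissue alone, array weights, a replicate block, the methods' t-test and leaving out each array. Sex as a covariate was added after the values were seen. Promoters were read from RefSeq tables with pandas 2.3.3, and figures were drawn with matplotlib 3.10.9.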

Additional observations from a re-analysis of the deposited data

Results flagged for a closer look

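The genotype effect differed between skeletal muscle and heart for 22 of the 36 genes of the module named with values, by the interaction term of the same limma fit. Of all genes, 41.3% were higher and 1.39% lower by this term with the deposited values, and 6% and 4.54% after normalization. The largest differences by this same term were among the reasons for naming a gene, so the count is partly selected. The differences below are log2 fold changes in skeletal muscle minus those in heart, first with the deposited values. The difference was 2.20 for Nqo1 (1.65 after normalization), 1.96 for Hmox1 (1.41 after normalization), 1.72 for Gclm (0.96 after normalization), 1.53 for Srxn1 (1.08 after normalization), 1.42 for Prdx1 (0.60 after normalization), 1.39 for Gsr (0.62 after normalization), 1.32 for Txnrd1 (0.64 after normalization) and 0.88 for Txnrd2 (0.39 after normalization). These 8 also passed after quantile normalization within each tissue.

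The other 14 passed with the deposited values only. It was 1.54 for Gpx3, 1.18 for Gstm7, 1.1 for Gsto1, 1.08 for Gpx1, 1.07 for Gclc and 1.06 for Gpx4. For the rest it was 0.96 for Txndc12, 0.95 for Txn1, 0.95 for Cat, 0.94 for Txn2, 0.94 for Sod1, 0.93 for Sod2, 0.88 for Prdx3 and 0.43 for Txndc5. After normalization these 14 differences lay between -0.19 (Txndc5) and 0.80 (Gpx3), with adjusted p between 0.137 and 0.657. The Tk2-/- heart arrays were dimmer than the Tk2+/+ heart arrays over all genes, and the part of that in these differences was not tested beyond the normalized values given.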

How the results depend on the processing

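The heart counts depended on the scaling. With quantile normalization within each tissue, 12 of the 59 genes were higher and 9 lower in Tk2-/- heart, and with upper-quartile scaling 18 and 8, against 4 and 36 with the deposited values. Of all 18820 genes, 2609 were higher and 3363 lower in heart with quantile normalization, and 6768 and 2747 with upper-quartile scaling. With the deposited values these were 375 and 9229. Under quantile normalization and upper-quartile scaling, the difference between the tissues was positive for 9 and 8 genes and negative for 1 and 4. This was against 31 and 0 with the deposited values, and median centring gave 1 negative. Of all genes, 1129 and 1144 were positive and 855 and 2831 negative, against 7781 and 261, with 804 negative after median centring. The median of the 59 genes in heart turned positive under these scalings, at 0.0043 and 0.11, against 0.0023 and 0.16 over all genes. In heart the sign also turned, with quantile normalization and with upper-quartile scaling, for Cat (0.020 and 0.11), Gclc (0.24 and 0.24), Gclm (0.18 and 0.15), Gss (0.36 and 0.43), Gstm4 (0.16 and 0.14), Gstm7 (0.20 and 0.19), Gsto1 (0.34 and 0.33), Gstt3 (0.11 and 0.41), Nqo1 (0.012 and 0.047), Prdx2 (0.062 and 0.11) and Sod1 (0.23 and 0.41), with upper-quartile scaling for Prdx3 (0.014) and Txn1 (0.091), and with median centring for Gss (0.042) and Gstt3 (0.16). Array weights gave 7 higher genes in heart, where 1561 of all genes were higher. They turned Gstt3 in heart to 0.041 and, in skeletal muscle, Gstp3 to -0.099 and Txn2 to 0.024, the last also positive with median centring (0.017). Between the Tk2+/+ tissues the counts were 21 higher and 13 lower with quantile normalization, which is within each tissue, 3 and 32 with median centring, and 4 higher without dim genes, against 8 and 21. Of all genes these were 9329 and 2016, 2161 and 6450, and 3393 higher of the 12775 that were not dim, against 5762 and 3471.

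The methods' t-test, with its unadjusted p and its minimum fold of 2, was run on the same log2 values with the offset added. It called 5 higher and 2 lower in skeletal muscle, 0 and 6 in heart and 1 and 6 between the Tk2+/+ tissues. The offset lowers the folds of dim genes. Gsta3 had mean signals of 42.1 in Tk2-/- and 12.9 in Tk2+/+ skeletal muscle. Its log2 fold change of 0.98 with the offset fell short of a fold of 2. Of all genes the t-test called 312 and 329, 38 and 1770, and 721 and 733. The genotype counts differ from those the paper reports, and the reason was not tested. With Benjamini-Hochberg adjustment and no fold the t-test called 4 and 0, 0 higher in heart, and 2 and 11. Of all genes these were 366 and 294, 217 higher in heart, and 2647 and 2106. The t-test uses no spread shared over genes, and limma called 21 and 7 in skeletal muscle.

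With 1 array left out, the counts ranged from 4 to 8 lower in skeletal muscle, from 2 to 7 higher in heart and from 6 to 8 higher between the Tk2+/+ tissues. Over all genes the same counts ranged from 1359 to 2136, from 224 to 876 and from 4119 to 5897. The log2 fold change crossed 0 in skeletal muscle for Gpx1 (-0.17 to 0.024), Gstp3 (-0.057 to 0.22) and Txn2 (-0.12 to 0.10), and in heart for Gstt3 (-0.073 to 0.028) and Hmox1 (-0.033 to 0.24), none of which had passed. The arrays of the groups share replicate numbers. Same-numbered arrays of the genotypes did not deviate together (correlations of -0.027, 0.12 and 0.13 in skeletal muscle and of -0.19, -0.17 and -0.048 in heart). Between the tissues the correlations were -0.071, -0.087 and -0.079 in Tk2-/- and 0.098, -0.19 and 0.013 in Tk2+/+. The numbers were not taken as pairs. The labels do not say whether a mouse gave both tissues. Xist was 1.45 in skeletal muscle and 1500 in heart for Tk2+/+ replicate 1, and 1.6 and 982 for Tk2-/- replicate 2, so these arrays were not of the same mouse. With a replicate block 20 and 7 genes were called higher and lower in skeletal muscle, 5 and 37 in heart, 30 and 0 for the difference, and 8 and 21 between the Tk2+/+ tissues. Of all genes these were 2133 and 1894, 394 and 9259, 7932 and 283, and 5862 and 3556. The cause of these changes was not tested. All other counts, under the alternatives run, including sex as a covariate, were within 1.5 times those reported. Dim genes are limited by the offset, and a gene whose arrays lie near 16 can show only a small fold.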
